A study of Drosophila melanogaster with 18 samples.

Results

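Tethered ACF1 was set against tethered HP1a at barcoded reporter genes integrated across the genome of Drosophila Kc167 cells, and the comparison asked which integration sites were lower under one tethered protein than under the other. All 749 integration sites of the deposited table were members, and 8 of the 18 samples of the series held their values. Which protein held the sites lower as a whole depended on how the libraries were scaled. The difference followed the strength of the site: weakly expressed sites were lower under GAL4-ACF1 relative to strongly expressed sites, and strongly expressed sites had higher values under GAL4-ACF1 than under GAL4-HP1 on the deposited scale. A set of 69 sites had no cDNA count in both GAL4-ACF1 libraries while at least 1 GAL4-HP1 library had counts, against 8 sites the other way round.

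GAL4-ACF1 is the DNA-binding domain of the yeast protein GAL4 fused to ACF1, and GAL4-HP1 is the same domain fused to HP1a. The other conditions of the series served here to filter and rank the sites, to share the estimate of spread and as reference levels. They were the GAL4 domain alone (GAL4) and ACF1 without the domain (ACF1). All 4 were transfected transiently into aliquots of 1 pool of Kc167 cells, an established embryonic line, from pAc5 plasmids that also encoded mCherry. Every reporter carried 5 GAL4 binding sites and a GFP gene under the copper-inducible metallothionein promoter, integrated by Sleeping Beauty transposition. In every condition the reporters were induced with 0.5 mM CuSO4, and cells sorted for transfection were collected at day 2. Each condition had 2 cDNA libraries (reporter mRNA, with a 2.5% spike-in of an independent pool by cell number) and 2 gDNA libraries (the abundance of each reporter in the cells). Replicates are technical according to the series text but biological according to the methods of the study, so p-values measure only the spread between these samples. A site had 1 reporter, so a site and its barcode cannot be told apart. Only barcodes were counted, so neither the levels of the fusion proteins nor markers of the cell line could be checked.

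ACF1 is the large regulatory subunit of ACF and CHRAC, remodelling complexes in which the ATPase ISWI slides nucleosomes and spaces them evenly. The study proposes that such regular arrays make the genome inaccessible and set up a repressed ground state. HP1a binds methylated lysine 9 of histone H3, is concentrated in pericentric heterochromatin and on chromosome 4, and represses many reporters when it is brought to them through a foreign DNA-binding domain. In the assay a ratio of cDNA to gDNA for one barcode therefore reports how strongly the reporter is transcribed at one place in the genome.

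The barcodes are shown for the sites on which the comparison of single sites rests. A barcode is the 21-base sequence in the reporter transcript by which mRNA and DNA of one integration were counted. Positions are those of the table (genome build dm3) and were not matched to genes, because no annotation of that build was used here. Lower case is used throughout, since the whole sequence is the identifier. The first 4 sites passed the test for lower expression under GAL4-ACF1, the next 2 were the highest-ranked sites in the other direction among those shown, and the last 3 had no cDNA count in either GAL4-ACF1 library. They lie at 3R 13718423 (plus orientation), 3R 2137932 (plus), 3L 4414745 (plus), X 20558939 (minus), 2L 19111305 (minus), 3L 605483 (minus), 2L 12282921 (minus), 3L 5438700 (minus) and 3L 19275659 (plus), in the order of the lines.
3R-b: agtactggatgtggggggttc
3R-a: actgttttgctgtgtttcctt
3L-a: ggacgttcagaagaatagcca
X-a: cggagcggcagtatcctgggc
2L-a: ggttatgaggttagatcgtgg
3L-b: gcgcgcaccggggctcaaaca
2L-b: gaatcctaaattttggttact
3L-c: accgtcgaggttatggcccta
3L-d: attcaagaatcgtaggtaact

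The cDNA libraries held 2616438 and 3715878 counts for GAL4-ACF1 and 3237365 and 3807089 for GAL4-HP1. The median site had 152 and 219 cDNA counts under GAL4-ACF1 and 342 and 386 under GAL4-HP1, and no site had fewer than 83 gDNA counts in these libraries. Expression is the deposited ratio of cDNA to gDNA counts times 1 factor per library, in arbitrary units. This factor places the libraries relative to each other. Under it the summed cDNA over the summed gDNA was 94.1 and 95.3 in the GAL4-ACF1 libraries and 78.4 and 46.9 in the GAL4-HP1 libraries, so the GAL4-HP1 replicates were scaled apart by more than the GAL4-ACF1 replicates.

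Over the 642 sites with a mean above 0 in all 4 conditions, the median log2 ratio of GAL4-ACF1 over GAL4-HP1 was 0.087, with quartiles of −1.11 and 0.91 and a range of −8.71 to 7.85. Expression was lower under GAL4-ACF1 at 303 sites and higher at 339. Each library of one protein against each of the other gave medians of −0.23 and −0.20 against GAL4-HP1 replicate 1 and of 0.70 and 0.61 against GAL4-HP1 replicate 2. On the deposited scale the sign of the overall median thus depended on which GAL4-HP1 library was used. Scaling every library to its own totals moved the median to −0.48, with 424 sites lower and 218 higher, and all 4 pairings then lay below 0, from −0.50 to −0.31. Since the scalings differ in sign, no direction of the overall level is given. Contrasts between classes of sites are read within libraries or relative to other sites. Counts of separated sites, tests of single sites and values at named sites compare libraries directly, so they carry the scaling given with them.

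Sites were next divided into quartiles by their expression with the GAL4 domain alone, which does not enter the ratio. The lowest quartile spanned up to 13.9 units in GAL4 and the highest began at 101 units. Median log2 ratios of GAL4-ACF1 over GAL4-HP1 were −0.94, −0.22, 0.06 and 0.66 in the lowest, the second, the third and the highest quartile (161, 160, 160 and 161 sites). The lowest minus the highest quartile was −1.60, and −0.87 and −0.94 for libraries 1 and 2 alone (mean −0.91 ± 0.049 SD, n = 2), where sites at 0 in a library drop out. All 4 pairings of the libraries gave the same sign, from −1.14 to −0.87. The highest quartile alone had a median of 0.66 on the deposited scale and of 0.05 under library totals, so the sign at strong sites rests on the deposited scale. Without GAL4-ACF1 replicate 1, the library with the lowest cDNA total, the value was −1.02.

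**Figure D1:**
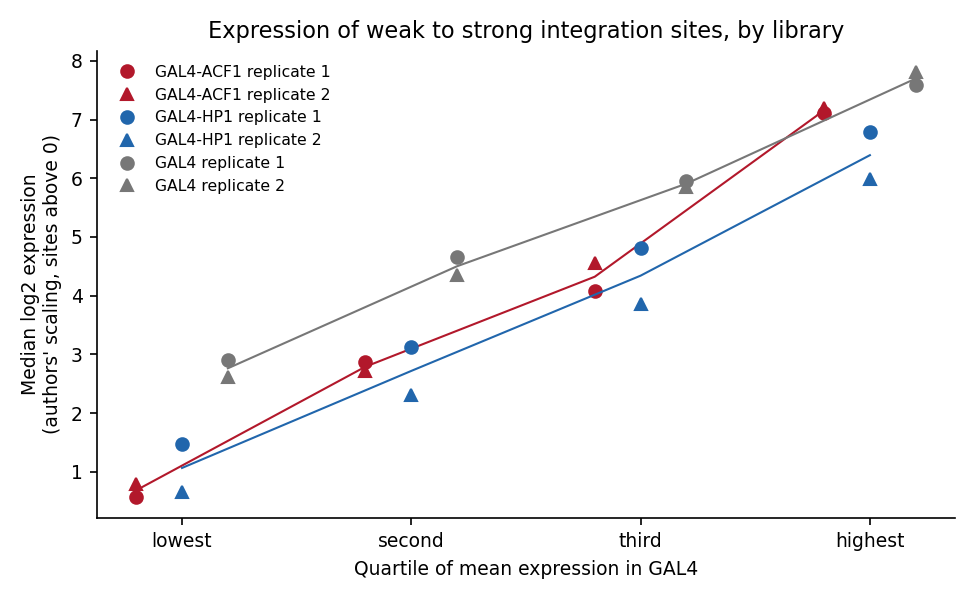
Median log2 expression (vertical axis, authors' scaling, sites above 0) of the integration sites in each quartile of GAL4 expression (horizontal axis), with 1 point per library and lines through the means of both replicates. The GAL4-ACF1 libraries climb by 6.54 and 6.40 log2 units between the lowest and the highest quartile and the GAL4-HP1 libraries by 5.31 and 5.34, so the GAL4-ACF1 line is the steeper one.

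The same contrast was taken inside each library, where the scaling between libraries cancels. The highest quartile exceeded the lowest by 6.54 and 6.40 log2 units in the GAL4-ACF1 libraries (mean 6.47 ± 0.095 SD, n = 2). In the GAL4-HP1 libraries it exceeded the lowest by 5.31 and 5.34 log2 units (mean 5.33 ± 0.017 SD, n = 2). The proteins did not overlap and differed by 1.14 log2 units, although 2 libraries against 2 cannot give an exact two-sided permutation p below 0.333, the value obtained. The span was 6.02 and 5.83 log2 units in the ACF1 libraries and 4.67 and 5.19 in the GAL4 libraries. GAL4-ACF1 libraries therefore had the widest span of the 4 conditions, and GAL4-HP1 libraries lay between GAL4 and the ACF1 libraries.

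Sites at 0 in a library do not enter these medians of log2 values. In the lowest quartile 53 and 24 sites were at 0 in the GAL4-ACF1 libraries and 21 and 10 in the GAL4-HP1 libraries. In the highest quartile there were 0 and 0 under GAL4-ACF1 and 1 and 0 under GAL4-HP1. Over the 497 sites above 0 in every cDNA library of the series the span was 6.23 and 6.26 log2 units under GAL4-ACF1 and 4.99 and 5.25 under GAL4-HP1. The groups remained apart when sites at 0 were left out of every library alike. Over these sites the ACF1 libraries had 5.04 and 5.34 log2 units and overlapped the GAL4-HP1 libraries, while the GAL4-ACF1 libraries lay above both.

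**Figure D2:**
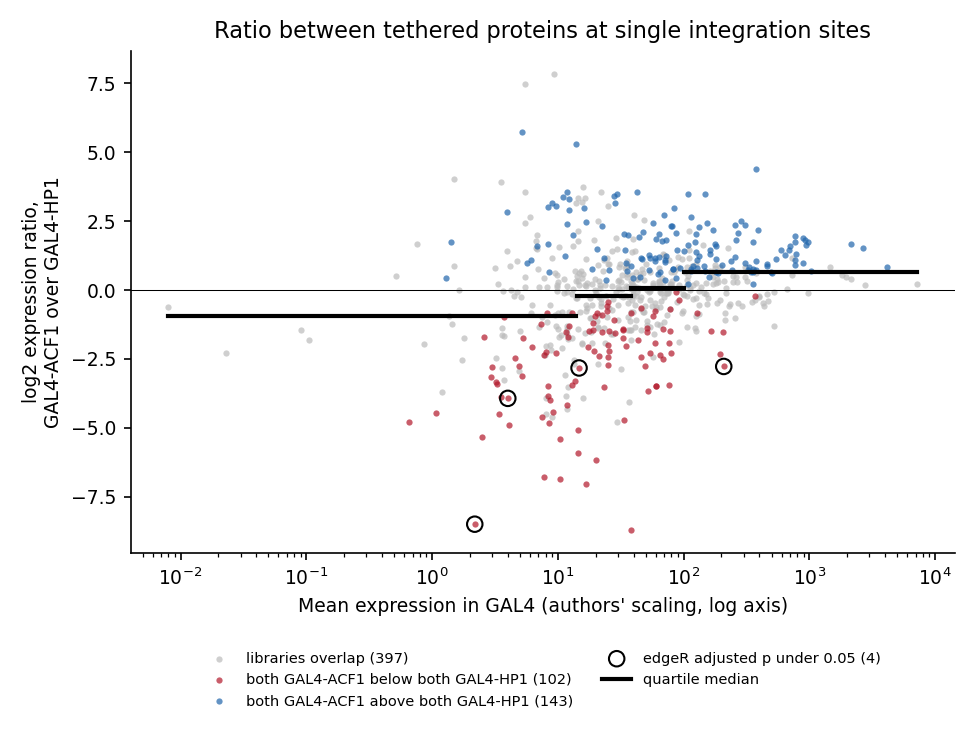
Log2 ratio of mean expression, GAL4-ACF1 over GAL4-HP1 (vertical axis), against mean expression in GAL4 (horizontal log axis, authors' scaling) for the 642 sites, with quartile medians as black bars and the 4 sites past the edgeR threshold circled. The quartile medians run from −0.94 at weak sites to 0.66 at strong sites, and sites scatter more widely at the weak end.

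A site was called separated where both libraries of one protein lay below both of the other. With 2 libraries against 2, values without any difference between the proteins separate in either direction with a probability of 0.333. Separation at a single site therefore does not by itself show a difference. With the deposited scaling GAL4-ACF1 lay below GAL4-HP1 at 102 of 642 sites (15.9%) and above it at 143 (22.3%). Under library totals it lay below at 201 sites (31.3%) and above at 66 (10.3%). The balance of the directions hence followed the scaling. With the deposited scaling GAL4-ACF1 was below at 24.8%, 20.6%, 14.4% and 3.73% of sites in the lowest to the highest quartile, and above at 12.4%, 10.6%, 21.9% and 44.1%. Separation toward lower GAL4-ACF1 was thus more frequent at weak sites and separation toward higher GAL4-ACF1 at strong sites. Under library totals it was below at 36.6%, 36.9%, 32.5% and 19.3% of sites, and above at 6.83%, 5.62%, 8.75% and 19.9%. The first 3 quartiles then differed little among themselves, and the highest quartile stood apart, with fewer sites below and more above. These shares were not tested.

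**Figure D3:**
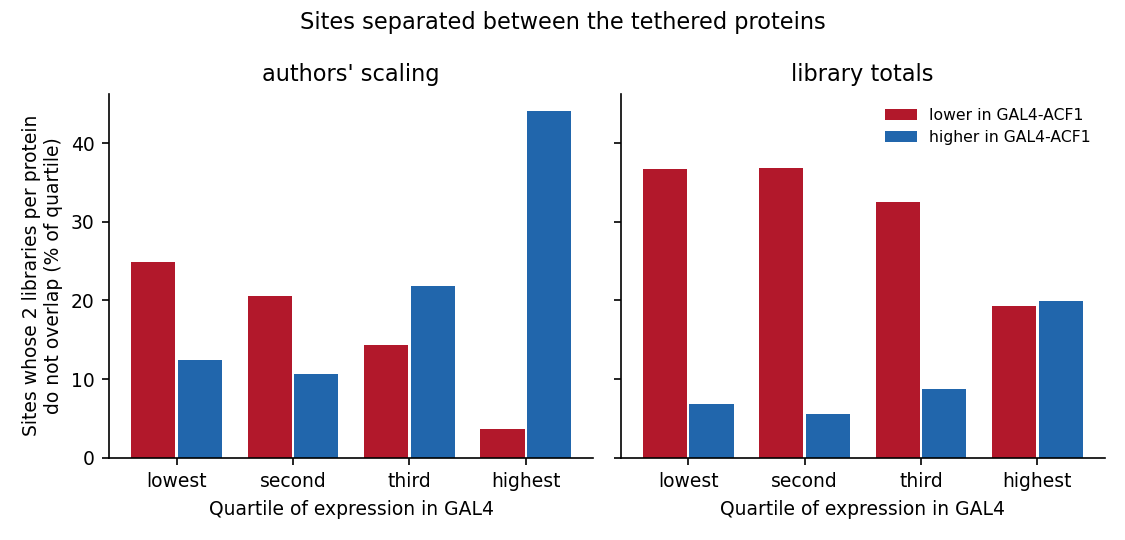
Share of sites (vertical axis, percent of the quartile) at which both GAL4-ACF1 libraries lay below (red) or above (blue) both GAL4-HP1 libraries, by quartile of expression in GAL4 (horizontal axis), with the deposited scaling at left and library totals at right. With the deposited scaling the share above is 44.1% in the highest quartile and 12.4% in the lowest, and the share below is 3.73% and 24.8%.

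How far a ratio was a property of the site was described by setting the log2 ratio from replicate 1 of both proteins against that from replicate 2. Over 501 sites above 0 in all 4 cDNA libraries Pearson's r was 0.15 and Spearman's rho 0.18. Log2 expression itself gave a Pearson's r of 0.82 between the GAL4-ACF1 replicates (519 sites) and of 0.79 between the GAL4-HP1 replicates (595 sites). These are correlations across sites that share libraries and are no replicates of the transfection. In the highest quartile r for the ratio was 0.28 (160 sites), against 0.16 in the lowest (73 sites), and the SD of the difference between replicates was 1.55 and 3.21 log2 units. In the second and the third quartile r was −0.02 (119 sites) and 0.08 (149 sites). With the replicate numbers crossed between the proteins, r was 0.08 over the 501 sites. It was then 0.03, −0.02, 0.05 and 0.19 in the lowest to the highest quartile. The ratio at single sites was thus at most weakly shared between the replicates, and not shared in the second quartile. The difference between replicates was wider in the lowest quartile than in the highest. Differences lay more in the cDNA than in the gDNA: over the same 501 sites the SD of the log2 difference in library share was 1.18 for cDNA and 0.56 for gDNA, and 177 sites differed more than 2-fold in cDNA share against 37 in gDNA share.

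For single sites the quasi-likelihood test of edgeR was run on the counts, as the difference between proteins of the cDNA change over the gDNA change, relative to the total of each library. Among the 642 sites 4 were lower under GAL4-ACF1 (0.623%) and 0 higher (0%) at an adjusted p under 0.05. At an unadjusted p under 0.05 there were 80 lower and 25 higher. These counts are relative to library totals, under which the median log2 ratio of all tested sites was −0.48. Their balance of directions therefore carries that scaling. DESeq2 on the same library sizes called 37 lower and 7 higher. None passed in edgeR with the authors' scaling (77 at an unadjusted p under 0.05) or in limma on log2 expression (57), so the calls depended on the setting. With the authors' scaling in edgeR the fitted log2 changes of the 4 sites were −3.92 (3R-b), −8.29 (3R-a), −2.80 (3L-a) and −2.69 (X-a), with adjusted p from 0.0555 to 0.175, and their libraries did not overlap on the deposited scale. The number was also 58 without GAL4-ACF1 replicate 2 and 1 without GAL4-HP1 replicate 2.

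Site 3R-b had the smallest adjusted p. Its expression was 0.0503 and 0.0403 in the GAL4-ACF1 libraries, from 17 cDNA counts in each, against 1.07 and 0.313 in the GAL4-HP1 libraries, from 463 and 271 counts. Both GAL4-ACF1 values lay below both GAL4-HP1 values. It was a well covered site, with 34614 and 22584 gDNA counts under GAL4-ACF1 and 30091 and 26141 under GAL4-HP1, and a weak one, with 4.16 and 3.84 units in GAL4. The fitted log2 change was −4.40 ± 0.51 (SE, edgeR adjusted p = 0.00124). Its adjusted p ranged from 7.65e-12 to 0.749 over 15 alternatives, and it passed in 13 of them, including each in which 1 library was left out.

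Site 3R-a was at 0 and 0.0184 under GAL4-ACF1, from 0 and 1 cDNA counts. Under GAL4-HP1 it was at 0.716 and 5.88, from 54 and 766 counts, so the replicates of GAL4-HP1 also differed from each other. In GAL4 it was at 1.92 and 2.44 units, between the GAL4-HP1 values. With 1 count in all under GAL4-ACF1, the pooled expression under GAL4-HP1 was 384 times that under GAL4-ACF1 on the deposited scale. The 95% exact interval of 68.7 to 15183 covers counting error only (edgeR adjusted p = 0.0329). Under library totals the pooled ratio was 623. The site passed in 7 of 13 alternatives, with adjusted p from 7.61e-05 to 0.500. It did not pass without GAL4-ACF1 replicate 1 (edgeR adjusted p = 0.0639) or without GAL4-HP1 replicate 2 (0.0786).

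Site X-a was at 1.03 and 0.936 under GAL4-ACF1 and at 4.56 and 9.38 under GAL4-HP1, in a site of 16.8 and 12.7 units in GAL4. The libraries of the proteins did not overlap. Its fitted log2 change was −3.41 ± 0.64 (SE, edgeR adjusted p = 0.0335), and it passed in 8 of 15 alternatives, with adjusted p from 8.82e-05 to 0.467. It did not pass without GAL4-ACF1 replicate 1 (edgeR adjusted p = 0.0639) or without GAL4-HP1 replicate 2 (0.140).

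Site 3L-a was the only strong site among the 4. Its expression was 130 and 179 under GAL4-ACF1, against 1260 and 851 under GAL4-HP1, 184 and 232 in GAL4 and 1364 and 471 with ACF1. The GAL4-ACF1 values thus lay near those of GAL4, and the GAL4-HP1 values above them. The cDNA counts were 2662 and 3817 under GAL4-ACF1 and 4185 and 5865 under GAL4-HP1, while the gDNA counts were 2095 and 1140 under GAL4-ACF1 and 230 and 208 under GAL4-HP1. The gDNA counts of this site were 1379 and 770 in GAL4 and 262 and 409 with ACF1, so the ratio moved mostly with the gDNA. The fitted log2 change was −3.43 ± 0.65 (SE, edgeR adjusted p = 0.0335) and −0.47 on cDNA libraries alone (edgeR adjusted p = 0.390), and the site passed in 7 of 15 alternatives, with adjusted p from 2.84e-05 to 0.467. It did not pass without GAL4-ACF1 replicate 1 (edgeR adjusted p = 0.0765), without GAL4-HP1 replicate 1 (0.192) or without GAL4-HP1 replicate 2 (0.140).

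**Figure D4:**
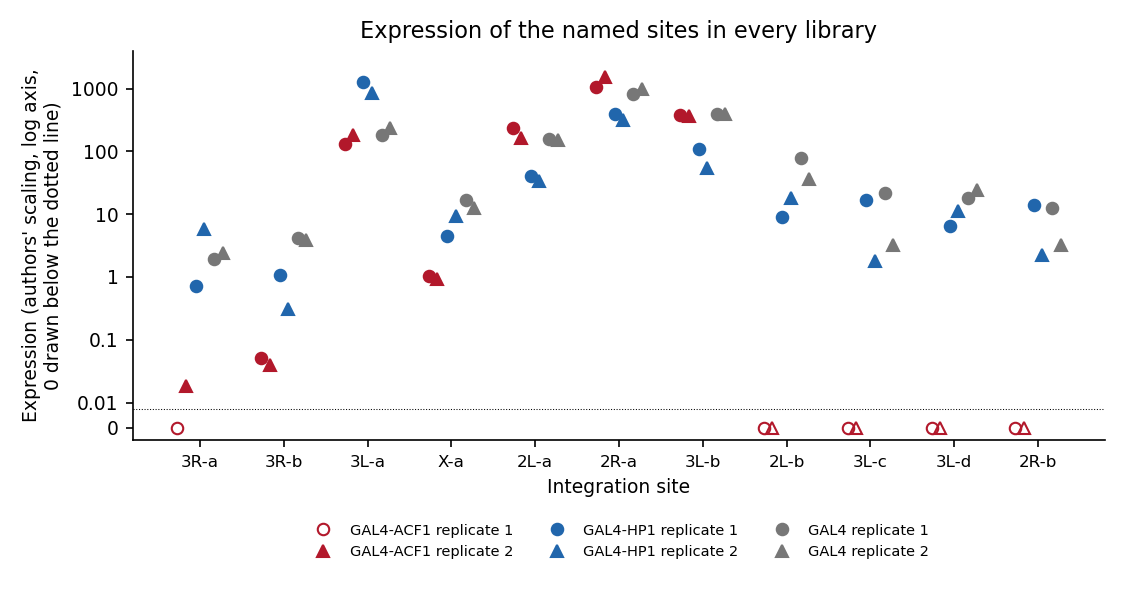
Expression (vertical log axis, authors' scaling, values of 0 drawn below the dotted line) of the named integration sites (horizontal axis) in each GAL4-ACF1, GAL4-HP1 and GAL4 library. The first 4 sites passed the edgeR threshold, the next 3 did not pass and had higher GAL4-ACF1 values, such as 239 and 161 against 40.2 and 33.5 units at site 2L-a, and the last 4 were at 0 in both GAL4-ACF1 libraries.

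No site higher under GAL4-ACF1 passed, and the 3 that ranked first by p without overlap all belonged to the highest quartile. The rule asked for at least 50 cDNA counts in each GAL4-ACF1 library, which favours strong sites, so their quartile is not a separate result. Site 2L-a was at 239 and 161 units under GAL4-ACF1 and at 40.2 and 33.5 under GAL4-HP1, with 154 and 152 in GAL4. The GAL4-ACF1 values lay at or above those of GAL4, and the GAL4-HP1 values below them. Its fitted log2 change was 1.78 ± 0.40 (SE, edgeR adjusted p = 0.0592). Site 2R-a, on 2R at 3450480 (plus), was at 1063 and 1545 units under GAL4-ACF1 and at 394 and 316 under GAL4-HP1, against 812 and 967 in GAL4. Its fitted log2 change was 1.22 ± 0.27 (SE, edgeR adjusted p = 0.0593). Site 3L-b was at 384 and 363 units under GAL4-ACF1 and at 110 and 53.9 under GAL4-HP1, with 387 and 388 in GAL4. Its fitted log2 change was 1.63 ± 0.43 (SE, edgeR adjusted p = 0.0962). At these 3 sites the GAL4-HP1 libraries lay below every GAL4 library and the GAL4-ACF1 libraries lay nearer to GAL4. Their adjusted p passed in 8, 7 and 1 of 15 alternatives.

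Among the 5 sites with the highest expression in GAL4 the libraries of the proteins overlapped at 3 and did not overlap at 2 on the deposited scale. Site 3L 3430681 was at 2670 and 912 units under GAL4-ACF1 and at 2264 and 834 under GAL4-HP1, against 7300 and 7118 in GAL4. Site 3R 4644683 was at 3225 and 4207 under GAL4-ACF1 and at 3854 and 2680 under GAL4-HP1. Site 3L 3387336 was at 1401 and 1582 under GAL4-ACF1 and at 1595 and 693 under GAL4-HP1. At these 3 the libraries of the proteins overlapped. Site 2R 8505191 was at 7275 and 5986 under GAL4-ACF1 and at 4233 and 3124 under GAL4-HP1. Site X 3325631 was at 7150 and 9516 under GAL4-ACF1 and at 4219 and 1572 under GAL4-HP1, with 1301 and 574 gDNA counts under GAL4-ACF1 and 1618 and 2140 under GAL4-HP1. These last sites were higher under GAL4-ACF1 without overlap on the deposited scale, but neither passed the test (edgeR adjusted p = 0.778 and 0.185). Under library totals 2R 8505191 overlapped, X 3325631 did not, and 3R 4644683 was lower under GAL4-ACF1 without overlap.

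Sites at 0 under one protein did not pass the filter, so these were counted over all 749 sites. There were 84 sites at 0 in both GAL4-ACF1 libraries and 23 at 0 in both GAL4-HP1 libraries, of which 15 were shared. Thus 69 were at 0 in both libraries for GAL4-ACF1 alone and 8 for GAL4-HP1 alone. Thinning every cDNA library to the smallest total gave 68.8 and 8.87 sites. This matches the totals only, and the median site still had fewer cDNA counts under GAL4-ACF1, as given above. Library by library, sites at 0 only under GAL4-ACF1 numbered 76 to 140 in the 4 pairings, and sites at 0 only under GAL4-HP1 numbered 13 to 34. The excess under GAL4-ACF1 held in every pairing. A further 141 sites were at 0 in 1 of the 2 GAL4-ACF1 libraries and 94 in 1 of the 2 GAL4-HP1 libraries.

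By their median the 69 sites were weak, though not each of them was: 2L-b was at 77.4 and 36.2 units in GAL4. Their median expression in GAL4 was 4.81 units, against 29.4 over all sites, and under GAL4-HP1 it was 1.44 units, against 10.1 over all sites. The median site of the 69 had 25 and 26 cDNA counts in the GAL4-HP1 libraries, and 33 were above 0 in both. In 10 of them each GAL4-HP1 library had at least 50 counts, whereas 0 of the 8 had as many counts in both GAL4-ACF1 libraries. Without the filter edgeR, again relative to library totals, called 29 sites lower (3.87% of 749) and 2 higher (0.267%). The balance of these directions also carries that scaling. Of these 31 sites 16 were at 0 in both GAL4-ACF1 libraries, none at 0 in both GAL4-HP1 libraries, and the 4 calls of the filtered test were all among them. The 2 higher ones were 2L-a and 2R-a.

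Among the 10 sites with at least 50 counts in each GAL4-HP1 library, the 4 with the highest expression under GAL4-HP1 were 2L-b, 3L-c, 3L-d and 2R-b (2R at 8790524, minus). Site 2L-b had 0 and 0 cDNA counts under GAL4-ACF1 and 130 and 473 under GAL4-HP1, at 597 and 762 gDNA counts under GAL4-ACF1 and 1003 and 802 under GAL4-HP1. With 3 counts per library as the limit that a count of 0 allows, expression was at least 36.9-fold lower under GAL4-ACF1 with the deposited scaling. For 3L-c, with 230 and 55 counts under GAL4-HP1, the bound was 40.1-fold lower, for 3L-d, with 66 and 90, it was 19.2-fold lower, and for 2R-b, with 246 and 92, it was 28.8-fold lower. Under library totals the bounds were 64.4, 51.5, 32.9 and 38.3. These bounds hold for counting error alone and use the mean of both GAL4-HP1 libraries. Expression under GAL4-HP1 was 16.9 and 1.77 units at 3L-c and 13.75 and 2.275 at 2R-b. It was 8.98 and 17.8 units at 2L-b and 6.58 and 11.3 at 3L-d. The bounds at 3L-c and 2R-b thus rest mostly on GAL4-HP1 replicate 1. All 4 sites were chosen for 0 under GAL4-ACF1 and high values under GAL4-HP1, so that choice itself favours large bounds. Of the GAL4-ACF1 values between 100 and 500 counts, 8.81% had no count in the partner library, and of such GAL4-HP1 values 4.03%, so zeros also occurred at sites that the partner library counted well.

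The location of a site was examined next. On the large arms medians of the log2 ratio relative to all sites were −0.05 on 2L (108 sites), 0.10 on 2R (101), −0.02 on 3L (129), 0.12 on 3R (155) and −0.33 on X (131). The X thus differed from the autosomal arms by −0.39, and by −0.51 under library totals. Within libraries X sites were below autosomal sites by log2 differences of −0.30 and −0.83 under GAL4-ACF1 and of −0.28 and 0.02 under GAL4-HP1. GAL4-ACF1 replicate 1 and GAL4-HP1 replicate 1 gave nearly the same value, so the difference between proteins was not resolved from the spread between replicates, and it was −0.14 without GAL4-ACF1 replicate 2 and −0.17 without GAL4-HP1 replicate 2. By quartile the median ratio on X was −0.98, −0.54, −0.35 and 0.71, against −1.10, −0.03, 0.18 and 0.65 on autosomal arms. X and autosomes lay farthest apart in the middle quartiles for these means of both replicates, but not in every pairing of libraries. Replicate 1 over replicate 1 gave −0.0009 on X against −1.04 on autosomal arms in the lowest quartile. In the second quartile this pairing gave −0.41 against −0.48.

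Heterochromatic and unplaced scaffolds held 28 sites, of which 14 were tested. Their median expression was 2.63 units under GAL4-ACF1 and 0.589 under GAL4-HP1, against 10.1 in GAL4. Relative to the large arms they were lower by log2 differences of −3.03 and −1.88 in the GAL4-ACF1 libraries and of −4.53 and −3.08 in the GAL4-HP1 libraries. The ratio was therefore shifted by 0.56 toward higher GAL4-ACF1 against the arms, but by −0.07 without GAL4-HP1 replicate 1, by 1.05 without GAL4-ACF1 replicate 2 and by 1.13 without GAL4-HP1 replicate 2. Among the 28 sites 6 were at 0 in both libraries of GAL4-ACF1 alone, 1 for GAL4-HP1 alone and 6 for both proteins.

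**Figure D5:**
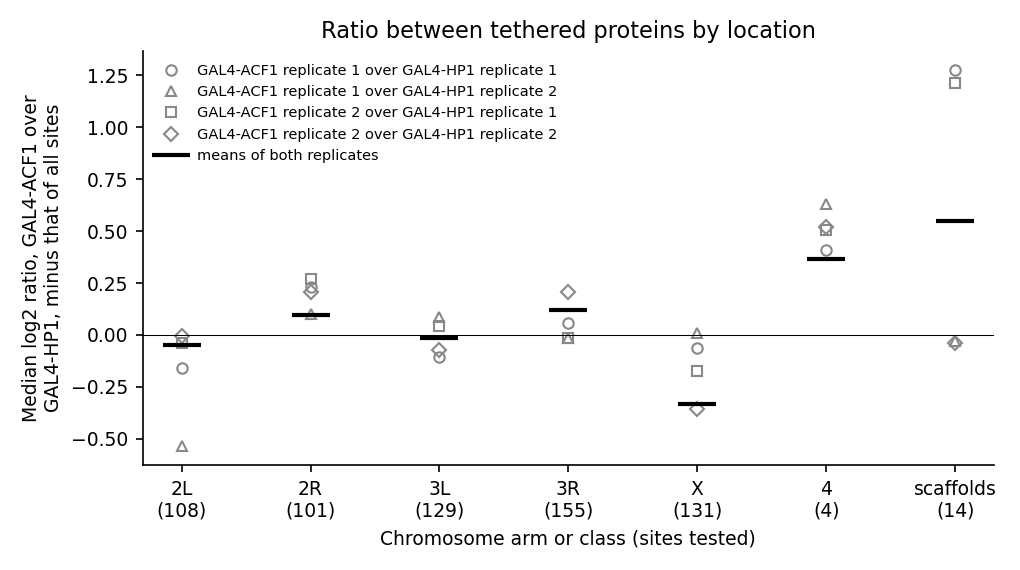
Median log2 ratio, GAL4-ACF1 over GAL4-HP1, minus that of all sites (vertical axis) by chromosome arm or class, with the number of sites tested in parentheses (horizontal axis), for each of the 4 pairings of libraries (grey symbols) and for the means of both replicates (black bars). X lies at −0.33 and the scaffolds at 0.55, where the pairings with different GAL4-HP1 libraries lie apart.

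Chromosome 4, a small chromosome rich in HP1a, held 5 sites. At 547814 expression was 326 and 356 under GAL4-ACF1 and 288 and 148 under GAL4-HP1, against 557 and 431 in GAL4. At 966930 it was 307 and 161 under GAL4-ACF1 and 91.8 and 81.6 under GAL4-HP1. In both cases the GAL4-ACF1 libraries lay above the GAL4-HP1 libraries with the deposited scaling and overlapped them under library totals. At 1252113 it was 10.6 and 8.01 under GAL4-ACF1 and 11.8 and 3.66 under GAL4-HP1, which overlapped. Site 1200624 was at 2.46 and 0 under GAL4-ACF1 and at 0 and 7.53 under GAL4-HP1. Site 407950 had no cDNA count except 59 in GAL4-HP1 replicate 2 among the 4 libraries. None of the 4 tested sites passed (edgeR adjusted p from 0.764 to 0.922).

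Along the arms the medians were 0.01, 0.20 and 0.06 in the telomere-proximal, the middle and the centromere-proximal class, which divide the sites of each arm into 3 equal numbers. Reporters in plus orientation had a median of 0.12 (296 sites) and those in minus orientation of 0.07 (346). Sites in the lowest to highest quartile of gDNA abundance had medians of 0.10, 0.22, 0.07 and 0.06. None of these classes, pooled over the arms, departed from all sites by more than 0.13. Within single arms the position classes went both ways relative to all sites, with 0.51 in the middle of 3R (52 sites), −0.30 in its centromere-proximal class (52), and −0.55 and −0.50 in the telomere-proximal (43) and the middle class (44) of X.

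For sites that neighbour each other on a chromosome, the median difference in ratio was smallest in the closest class of pairs, and the classes overlapped widely. The absolute difference of the log2 ratio had a median of 1.20 for 30 pairs up to 10 kb apart, 1.48 for 132 pairs of 10 to 50 kb, and 1.65 for 268 pairs of 50 to 200 kb, and the 201 pairs farther apart lay between the last 2 values. The closest pair, 17 bases apart on 2R at 8268310 and 8268327, had log2 ratios of −0.18 and −1.22. On 3L the pair at 3951388 and 3951559, 171 bases apart, had 0.07 and 0.07, and the pair at 2089820 and 2090177, 357 bases apart, had −0.87 and 1.38. A pair 640 bases apart on 2R, at 12512678 and 12513318, had −0.79 and 1.18. Thus 2 of the 4 closest pairs had ratios of opposite sign. The ratio of a single site differed between same-numbered replicates with an SD of 2.28 log2 units (501 sites). With that spread these pairs cannot show whether the ratio depends on distance.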

How the data were processed

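Per the labels, counts and positions refer to dm3. The authors deposited 1 table with whole cDNA and gDNA read counts per barcode, not normalized, and an expression ratio of cDNA over gDNA. Dividing the deposited ratio by the count ratio left 1 constant per library, the authors' factor, which includes the spike-in scaling. Spike-in counts and the software for counting are not given in the sources used here. No molecular identifiers are described, so intervals cover counting error only. All 8 cDNA and 8 gDNA columns mapped to samples.

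Expression was averaged over both replicates without a pseudocount, and sites at a mean of 0 in any of 4 conditions were left out of tests (642 of 749 kept). Counts were tested with edgeR 4.0.16 (16 libraries in 8 groups, library totals, Benjamini-Hochberg over 642 sites, common dispersion 0.358). DESeq2 1.42.0 and limma 3.58.1 (on log2 expression with a pseudocount of 1) were alternatives, run in R 4.3.3. On simulated counts for these 642 sites edgeR recovered 60% and 4% of sites lowered by log2 −4 and −2, and 66% and 16% of those raised by 4 and 2, with 0.452% of unchanged sites called. The simulation gave the common dispersion to cDNA and gDNA and to weak and strong sites alike. In the data the spread differed between these, so the rates hold for the simulated setting only. Named sites were up to 6 past the threshold per direction with the largest fitted change, no overlap of expression, at least 50 cDNA counts in each library of the higher protein and at least 50 gDNA counts. Where fewer than 3 passed, the smallest p filled up to 3. Further named sites were up to 4 at 0 in both libraries of 1 protein with the highest expression under the other and at least 50 counts in both of its libraries, the 5 highest in GAL4, all on chromosome 4 and the 4 closest pairs. Sites, classes and rules were chosen with earlier results of these data known.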

Additional observations from a re-analysis of the deposited data

How the results depend on the processing

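The number of sites past the edgeR threshold, 4 in the reported setting, was 8 with TMM, 0 with the authors' scaling, 44 with DESeq2, 0 with limma on log2 expression, 31 without a filter, 9 with sites above 0 in every cDNA library, 9 with at least 10 counts in every library, 7 on cDNA alone and 1 with only the 8 libraries of both proteins. Leaving out 1 library gave 1 to 58. The replicate block gave 5 sites, of which 2 were among the 4. Deviations of same-numbered libraries of the proteins compared correlated with r = 0.071 over 501 sites. In each of the 4 conditions replicate 1 had the higher authors' factor and the higher gDNA total. Whether same-numbered libraries share a batch was not tested. The median log2 ratio, 0.087, was −0.48 with library totals and −0.47 with totals without the 15 highest sites (chosen after seeing the data), and −0.20 to 0.67 with 1 library left out, of which only the value without GAL4-HP1 replicate 2 was below 0. The lowest minus the highest quartile, −1.60, was below 0 in all 17 alternatives. It was −1.73 with library totals, −1.73 with totals without the highest sites, −0.95 with the mean of log2 values, which equals the replicate block by construction, −1.12 with a pseudocount of 1, −0.74 with sites above 0 in every cDNA library, −0.65 with at least 10 counts, −1.49 with quartiles of GAL4 replicate 2 and −1.44 with 3 classes in place of 4, and −1.41 to −1.02 with 1 library left out. Filters on cDNA counts remove sites that fell to 0. The shift of the scaffolds was −0.0721 without GAL4-HP1 replicate 1 and up to 1.13 with another library left out and that of the X −0.44 to −0.14. Sites at 0 numbered 79 and 8 with 3 counts or fewer in place of 0. The cause was not tested for other settings. The median site had 152 cDNA counts in GAL4-ACF1 replicate 1, the lowest of the 8 cDNA libraries, and the part of depth in the spread at single sites was not tested.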
